A study of Aphis gossypii with 6 samples.

Results

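The carotenoid genes of the cotton aphid, Aphis gossypii, were taken as every gene of the deposited table whose product description names lycopene, phytoene, carotene or carotenoid. The rule matched 9 of 14013 genes. By annotation, 6 are bifunctional lycopene cyclase/phytoene synthase-like genes, 1 is a phytoene desaturase-like gene, 1 is a carotenoid isomerooxygenase and 1 is a putative beta-carotene-binding protein. RNA of pooled whole bodies was sequenced from a beta-cypermethrin-resistant strain, RGL, and from a beta-cypermethrin-sensitive strain, SGL, whose genotype is labelled WT. There were 3 libraries per strain, and neither strain was exposed to the insecticide, a pyrethroid. The resistant aphids go back to a field population, and the title of the series names Chinese wolfberry as the crop and mutations of the voltage-gated sodium channel in connection with resistance. The sources used here do not give the alleles of each library, the age or winged form of the aphids or the number of aphids per pool.

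Carotenoids are coloured lipids that most animals obtain from food. Aphids are known for making their own, with enzymes whose genes descend from fungal genes taken up by an ancestor of aphids, and the pigments contribute to green, yellow and red body colour. The synthase part of the bifunctional enzyme joins a pair of geranylgeranyl diphosphate molecules into colourless phytoene, the desaturase adds double bonds and so gives colour, and the cyclase part closes the rings at the ends of the chain. In the pea aphid, a desaturase gene of this family is needed for red body colour. An isomerooxygenase acts at the other end of the pathway and, in Drosophila, cleaves carotenoids to the retinal that visual pigments carry.

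The libraries held 31290134 to 46681719 counts. All 9 carotenoid genes were counted in all 6 libraries and passed the low-count filter, with the beta-carotene-binding protein near the limit of the depth at 10 to 40 reads per library. Genes matched by text to muscle, nerve, gut, cuticle and germline were present in whole-body RNA of both strains. Nothing in the labels states that replicate libraries were grown apart, so the spread behind each p-value may be technical. In bulk RNA, fewer cells of a type and less RNA per cell cannot be told apart. Each condition is a single strain, so resistance and any other difference between the strains cannot be told apart either.

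In the resistant strain 6 of the 9 carotenoid genes rose and 0 fell (edgeR's quasi-likelihood test over all 11149 tested genes, Benjamini-Hochberg adjusted p below 0.05). Of all tested genes 21.4% rose and 14.4% fell by that criterion. These were 2383 and 1611 genes, and 1759 rose and 2322 fell with libraries scaled by their totals alone, under which 5 carotenoid genes rose and 0 fell. At an unadjusted p below 0.05, 7 carotenoid genes were higher and 0 lower, as also with DESeq2. A rise of at least 2-fold was seen in 3 carotenoid genes, against 8.31% of all tested genes, and a fall of that size in 0, against 1.96%. The median log2 fold change, resistant over sensitive, was 0.68 for the 9 genes and -0.00374 for all tested genes. The 3 libraries of one strain lay entirely above those of the other in 8 carotenoid genes, 7 of them higher and 1 lower in the resistant strain. Such separation was seen upwards in 28.2% and downwards in 25.8% of all tested genes, so for most members it says little by itself. Without sensitive replicate 3 the number of carotenoid genes that rose was 3, and 1593 of all tested genes rose.

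**Figure D1:**
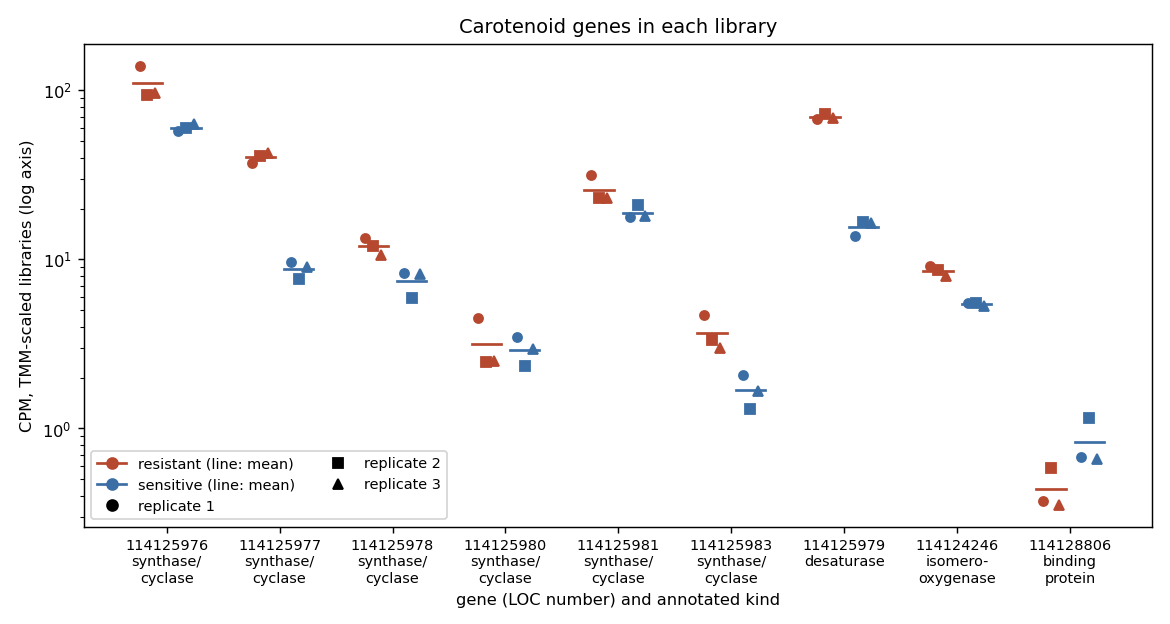
CPM (logarithmic axis) of each carotenoid gene in each library, resistant strain in red and sensitive strain in blue, with a line at the mean of 3 libraries. LOC114125977 and the desaturase LOC114125979 have the widest gaps between strains, while the 2 sets of points of LOC114125980 overlap.

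The 2 genes with the greatest rise were a synthase/cyclase and the desaturase. The synthase/cyclase gene LOC114125977 had 37.4, 41.1 and 42.8 CPM (reads scaled to a common library size after TMM) in the resistant libraries, against 9.65, 7.70 and 8.98 CPM in the sensitive libraries. The lowest resistant library was thus well above the highest sensitive one. Its log2 fold change was 2.20 ± 0.13 (SE, adjusted p = 2.21e-05 by edgeR), a 4.60-fold difference. The desaturase gene LOC114125979 had 68.0, 72.8 and 68.9 CPM in the resistant libraries, against 13.7, 16.6 and 16.4 CPM in the sensitive libraries. The libraries of a strain lay close together and the strains far apart. The desaturase's log2 fold change was 2.17 ± 0.11 (SE, adjusted p = 1.37e-05 by edgeR), a 4.50-fold difference. Leaving out each library in turn, changing the scaling or filter, blocking by replicate number or using DESeq2 gave log2 fold changes between 2.06 and 2.28 for LOC114125977 and between 2.02 and 2.22 for LOC114125979, with an adjusted p below 0.05 each time.

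The 2 genes, picked as the greatest rises, had close log2 fold changes, but 3 libraries per strain cannot show that they changed equally. The log2 ratio of desaturase counts to LOC114125977 counts, which no scaling of libraries can alter, was 0.79 ± 0.09 in the resistant libraries and 0.83 ± 0.30 in the sensitive libraries (mean ± SD, n = 3 each), with overlapping values (two-sided exact permutation p = 0.80). LOC114125977 had the greatest rise of the synthase/cyclase genes, so its ratios to the others largely restate the fold changes. Its log2 ratio to each of the other 5 synthase/cyclase genes was higher in every resistant library than in any sensitive library. The strain difference in that ratio was 1.36 log2 units against LOC114125976, 1.52 against LOC114125978, 2.13 against LOC114125980, 1.77 against LOC114125981 and 1.08 against LOC114125983. Each of these 5 comparisons had an exact permutation p of 0.10, the smallest that 3 against 3 libraries can give, so none could pass 0.05.

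**Figure D2:**
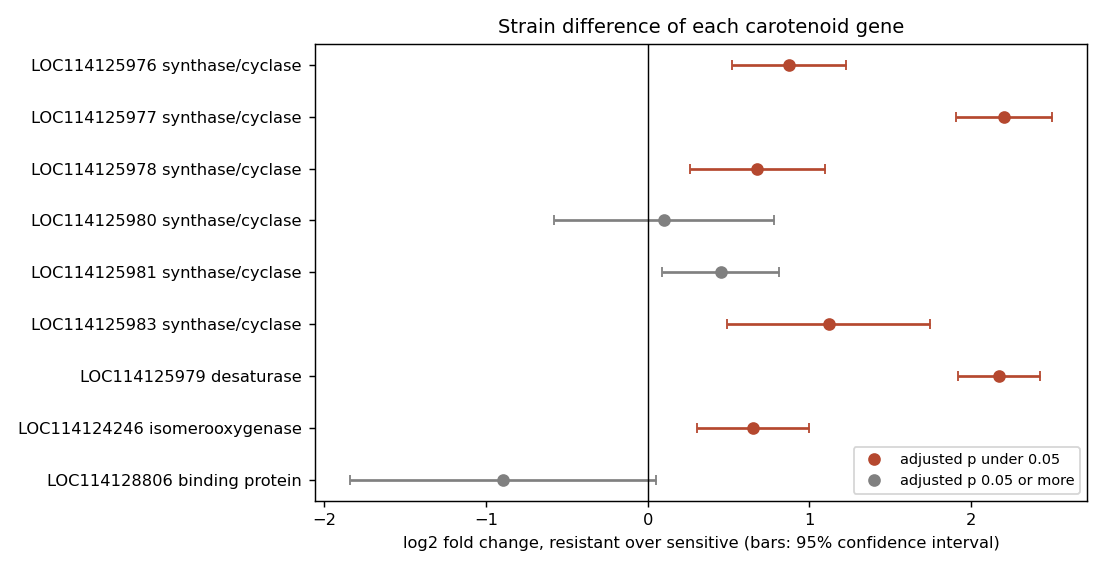
Log2 fold change of each carotenoid gene, resistant over sensitive, with the 95% confidence interval of the edgeR model as bars, red where the adjusted p over all tested genes was below 0.05. The intervals of LOC114125977 and LOC114125979 run from 1.91 to 2.50 and from 1.92 to 2.42 and lie above those of the other members, and the intervals of LOC114125980 and LOC114128806 include 0.

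Of the remaining 5 synthase/cyclase genes, 3 rose by less and 2 did not pass the test. The most abundant, LOC114125976, had 139, 94.3 and 96.1 CPM in the resistant libraries, against 57.1, 60.0 and 63.0 CPM in the sensitive libraries. Resistant replicate 1 stood above the other resistant libraries, and all 3 were above the sensitive strain. The log2 fold change was 0.87 ± 0.15 (SE, adjusted p = 0.00337 by edgeR), and 0.67 without resistant replicate 1. The scarce LOC114125983 had 4.69, 3.34 and 3.002 CPM in the resistant libraries, against 2.07, 1.30 and 1.68 CPM in the sensitive libraries. Its log2 fold change was 1.12 ± 0.27 (SE, adjusted p = 0.0141 by edgeR), and the adjusted p was 0.0599 without sensitive replicate 2 and 0.0597 without sensitive replicate 3. LOC114125978 had 13.4, 11.9 and 10.6 CPM in the resistant libraries, against 8.31, 5.94 and 8.14 CPM in the sensitive libraries. Every resistant library was above every sensitive one, with a narrow gap. The difference was 0.68 ± 0.18 on the log2 scale (SE, adjusted p = 0.0210 by edgeR). This call was lost without resistant replicate 2, sensitive replicate 2 or sensitive replicate 3 (adjusted p = 0.0643, 0.0802 and 0.0590) and with library totals alone (adjusted p = 0.0541).

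LOC114125981 had 31.8, 22.9 and 23.0 CPM in the resistant libraries, against 17.9, 20.8 and 18.0 CPM in the sensitive libraries, a log2 difference of 0.45 with a 95% confidence interval of 0.09 to 0.81 (adjusted p = 0.0561 by edgeR). The strains did not overlap, but resistant replicates 2 and 3 were close to the highest sensitive library. This gene passed with DESeq2 (adjusted p = 0.0401), without resistant replicate 1 (adjusted p = 0.0326) and without resistant replicate 3 (adjusted p = 0.0410). LOC114125980 had 4.51, 2.47 and 2.51 CPM in the resistant libraries, against 3.48, 2.35 and 2.93 CPM in the sensitive libraries. Its values overlapped between the strains, although the highest was in a resistant and the lowest in a sensitive library. Its log2 difference of 0.10 had a 95% confidence interval of -0.58 to 0.78 (adjusted p = 0.815 by edgeR), or a fold of 0.669 to 1.72. The 6 synthase/cyclase genes share a product name and a Pfam entry for squalene and phytoene synthases. The sources used here do not tell how reads shared by close copies were assigned, so the split of reads among them is uncertain.

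Resistant replicate 1 departed from resistant replicates 2 and 3 in some members and not in others. It was higher by 0.84 log2 units in LOC114125980, 0.56 in LOC114125983, 0.55 in LOC114125976 and 0.47 in LOC114125981. In the 2 genes with the greatest rise it was lower, by -0.06 in the desaturase and -0.16 in LOC114125977. The size of these differences depends on the scaling. The TMM factor was 0.858 for resistant replicate 1 and 0.988 to 1.06 for the other libraries. In the deposited FPKM, scaled to library totals, the desaturase had 26.2 in resistant replicate 1, against 33.0 and 31.0 in replicates 2 and 3. LOC114125977 had 14.6, against 18.5 and 19.3. Without this library the log2 fold change was 0.91 for LOC114125983, 0.28 for LOC114125981 and -0.23 for LOC114125980.

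Levels of different genes were compared per transcript length with the deposited FPKM (fragments scaled to transcript length and to mapped reads), which the authors scaled to library totals. In the resistant strain LOC114125976 (32.8 ± 4.27 FPKM, mean ± SD, n = 3) and the desaturase (30.0 ± 3.51 FPKM) were highest and overlapped each other. LOC114125981 (17.9 ± 1.67 FPKM) and LOC114125977 (17.5 ± 2.52 FPKM) came next and also overlapped, followed by LOC114125978 at 4.95 ± 0.278 FPKM. In the sensitive strain the order was different. LOC114125976 (19.7 ± 1.07 FPKM) led LOC114125981 (14.5 ± 1.16 FPKM), with no overlap, and the desaturase followed at 7.26 ± 0.766 FPKM. LOC114125977 (4.07 ± 0.476 FPKM) and LOC114125978 (3.41 ± 0.630 FPKM) overlapped there. LOC114125980 stood at 2.39 ± 0.629 FPKM in the resistant and 2.47 ± 0.485 FPKM in the sensitive strain, and LOC114125983 at 1.46 ± 0.207 FPKM in the resistant and 0.739 ± 0.173 FPKM in the sensitive strain.

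Added up, the 6 synthase/cyclase genes reached 81.9, 73.8 and 75.3 FPKM in the resistant libraries, against 44.6, 44.1 and 46.1 FPKM in the sensitive libraries. The desaturase contributed a larger share of the 7 carotenoid-making genes in the resistant strain, with 24.2%, 30.9% and 29.2% of their summed FPKM, against 12.5%, 14.8% and 14.4% in the sensitive strain. Within the synthase/cyclase genes, LOC114125977 made up 17.8%, 25.0% and 25.7% of the FPKM in the resistant libraries, against 9.99%, 8.02% and 9.12% in the sensitive libraries. The share of LOC114125981 was lower in the resistant strain (23.3 ± 0.845%) than in the sensitive strain (32.4 ± 3.13%, mean ± SD, n = 3 each). The share of LOC114125976 was 42.5 ± 3.07% in the resistant and 43.9 ± 1.61% in the sensitive strain, with overlapping libraries. For the shares of the desaturase, LOC114125977 and LOC114125981 the strains did not overlap, and the two-sided exact permutation p was 0.10, the smallest the design allows. The desaturase and LOC114125977 were picked as the greatest rises, so their larger shares largely restate the fold changes. The lower share of LOC114125981 is not a lower level, as its mean FPKM was 17.9 in the resistant and 14.5 in the sensitive strain.

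**Figure D3:**
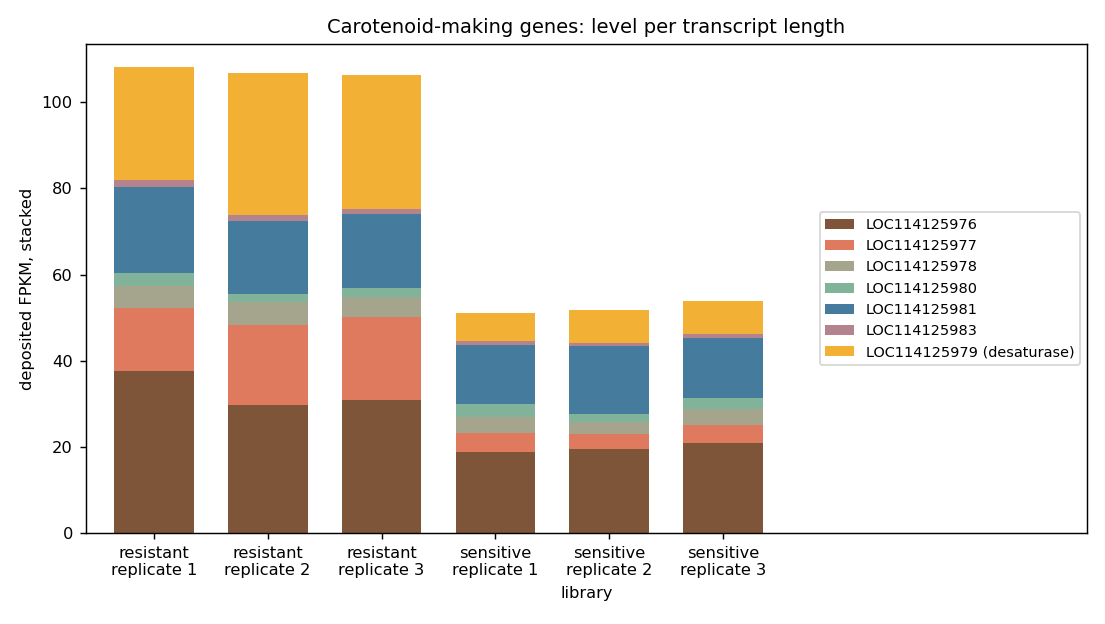
Deposited FPKM of the 6 synthase/cyclase genes and the desaturase, stacked for each library, resistant libraries on the left. The stacks reach 106 to 108 FPKM in the resistant and 51.0 to 53.9 FPKM in the sensitive libraries, and the desaturase layer differs most between the strains.

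Gene order was taken from the RefSeq annotation of assembly ASM2018417v2, in which 7 of the 9 members were found by identifier. Order is given without coordinates, because the build behind the deposited table is unknown. There, 5 members lie in a row on the same chromosome: the desaturase LOC114125979, then LOC114125977, LOC114125983, LOC114125978 and LOC114125976. The 2 genes with the greatest rise are thus next to each other at one end of the row, and the 3 with smaller rises follow. A further protein-coding locus of that annotation, LOC126548864, overlaps LOC114125983 and LOC114125978 and is not among the genes of the count table. The isomerooxygenase and the beta-carotene-binding protein lie on 2 other chromosomes, and LOC114125980 and LOC114125981 were not placed here.

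The nearest genes on either side differed less between the strains than the members of the row did. Of the nearest 5 counted genes on each flank, 10 in all, 0 rose and 1 fell by edgeR, against 21.4% and 14.4% of all tested genes, and their median log2 fold change was -0.20. At an unadjusted p below 0.05, 1 was higher and 1 lower, as also with DESeq2. The largest upward difference was in LOC114125988, a trehalose transporter homolog, at 0.40 ± 0.14 on the log2 scale (SE, adjusted p = 0.0543 by edgeR). LOC114126001, a BUD31 homolog (a splicing factor) next to the desaturase, averaged 19.9 ± 1.72 CPM in resistant and 18.1 ± 0.313 CPM in sensitive libraries (log2 difference 0.14, adjusted p = 0.383 by edgeR). On the opposite flank, past the uncharacterized LOC114125996 (log2 difference -0.22, adjusted p = 0.265), the gene for subunit 1 of the transcription factor TFIID, LOC114125975, fell to 121 ± 6.99 CPM in resistant libraries, against 146 ± 6.04 CPM in sensitive libraries (mean ± SD, n = 3 each). Its log2 fold change was -0.26 ± 0.08 (SE, adjusted p = 0.0386 by edgeR), and it did not pass without resistant replicate 2 or without sensitive replicate 1, 2 or 3 (adjusted p = 0.0619, 0.0854, 0.150 and 0.123) or with the replicate block (0.0711). With library totals alone it was at -0.41. Without resistant replicate 1, 1 flanking gene rose, and 3249 of all tested genes did. The 10 flanking genes were taken by position, a choice made after values were seen.

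**Figure D4:**
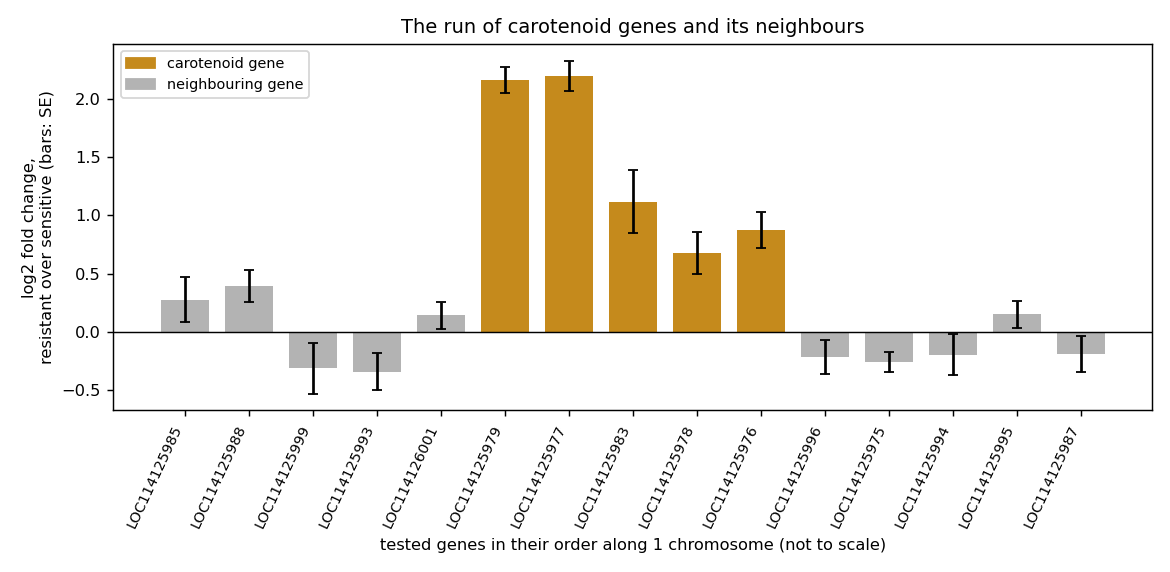
Log2 fold change, resistant over sensitive, of the row of 5 carotenoid genes (gold) and 5 tested genes on each side (grey) in their order along the chromosome, with SE as bars. The gold bars run from 0.68 to 2.20 and the grey bars from -0.34 to 0.40.

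The carotenoid-cleaving enzyme also rose. The isomerooxygenase LOC114124246 had 9.17, 8.61 and 7.94 CPM in the resistant libraries, against 5.52, 5.53 and 5.33 CPM in the sensitive libraries. All resistant libraries were higher, and the sensitive libraries were nearly equal. The strain difference was 0.65 ± 0.15 on the log2 scale (SE, adjusted p = 0.0113 by edgeR), with an adjusted p of 0.0508 without sensitive replicate 1 and 0.0599 without sensitive replicate 3. Desaturase FPKM was 7.94 to 9.01 times that of the isomerooxygenase in the resistant libraries and 2.62 to 3.24 times in the sensitive libraries. The putative beta-carotene-binding protein LOC114128806 belongs by Pfam to the haemolymph juvenile hormone-binding proteins, and a locust protein of that name binds the pigment. It went the other way, with 0.373, 0.585 and 0.355 CPM in the resistant libraries, against 0.680, 1.16 and 0.659 CPM in the sensitive libraries. The strains did not overlap, but the log2 difference of -0.90 had a 95% confidence interval of -1.84 to 0.05 (adjusted p = 0.125 by edgeR), so no difference was detectable at this depth.

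The authors' deposited table gives 2 members as up by its own criterion (DESeq2 adjusted p of 0.01 and a 2-fold change, per the column header), LOC114125977 with a log2 fold change of 2.14 and LOC114125979 with 2.12. The authors' deposited table marks 6 further members as normal, among them LOC114125983 at 0.99 on the log2 scale, just under 2-fold, and the beta-carotene-binding protein has no value.

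Carotenoids are built from isoprenoid units that the mevalonate pathway makes from acetyl-CoA. By text, 16 genes matched that pathway or the prenyl diphosphate synthases that lengthen its product, and all were tested. Of these, 6 rose and 0 fell, against 21.4% and 14.4% of all tested genes. Their median log2 fold change was 0.26. At an unadjusted p below 0.05, 8 were higher and 2 lower, and with DESeq2 7 were higher and 1 lower. The gene nearest to the carotenoid step, geranylgeranyl pyrophosphate synthase LOC114126189, which makes the substrate of phytoene synthase, had 53.2, 55.9 and 60.9 CPM in the resistant libraries, against 32.4, 32.7 and 30.2 CPM in the sensitive libraries. The strains were well apart, and the log2 fold change was 0.84 ± 0.10 (SE, adjusted p = 0.000413 by edgeR), a call that held under all 12 alternatives tried. Isopentenyl-diphosphate isomerase LOC114122895, which balances the pathway's C5 units, averaged 33.3 ± 1.81 CPM in resistant and 22.6 ± 1.30 CPM in sensitive libraries, a rise of 0.56 ± 0.11 (log2 scale). The mitochondrial acetyl-CoA acetyltransferase LOC114119129 rose by 0.72 ± 0.09 on the log2 scale. Its name places it in mitochondria, and whether it feeds the mevalonate pathway was not tested. The cytosolic form, LOC114125153, did not pass (adjusted p = 0.0701 by edgeR). Like the desaturase and LOC114125977, the genes LOC114126189, LOC114122895 and LOC114119129 were slightly lower in resistant replicate 1 than in its 2 companions. Their differences, on TMM-scaled libraries, were -0.13, -0.13 and -0.07 log2 units.

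The middle of the mevalonate pathway did not pass the test. HMG-CoA reductase LOC114121337, its rate-limiting enzyme, averaged 138 ± 15.8 CPM in resistant and 119 ± 6.53 CPM in sensitive libraries, a log2 difference of 0.22 with a 95% confidence interval of -0.01 to 0.45 (adjusted p = 0.129 by edgeR). The intervals were -0.36 to 0.27 for mevalonate kinase LOC114121124, -0.51 to 0.19 for phosphomevalonate kinase LOC114128497 and -0.43 to -0.01 for diphosphomevalonate decarboxylase LOC114121236. For farnesyl pyrophosphate synthase LOC114120037, which makes the step before geranylgeranyl diphosphate, the interval was -0.35 to 0.20. A log2 difference of 0.84, that of geranylgeranyl pyrophosphate synthase, is outside each of these 5 intervals. Without resistant replicate 1 the decarboxylase passed at -0.29 (adjusted p = 0.00111) and phosphomevalonate kinase at -0.31 (adjusted p = 0.0282), both lower in the resistant strain. The decarboxylase also passed with library totals alone, at -0.37 (adjusted p = 0.0112).

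Earlier and side steps were mixed. HMG-CoA synthase 2, LOC114123735, averaged 289 ± 78.5 CPM in resistant and 181 ± 4.70 CPM in sensitive libraries, a rise of 0.67 ± 0.17 on the log2 scale (adjusted p = 0.0169 by edgeR). Resistant replicate 1 exceeded its 2 companions by 0.63 log2 units in this gene, and without it the log2 fold change was 0.43. Without sensitive replicates 1, 2 and 3 the adjusted p was 0.0619, 0.0732 and 0.0693, with log2 fold changes of 0.68, 0.65 and 0.67. The scarce cytoplasmic-like HMG-CoA synthase LOC114132152 had 56, 40 and 27 reads in the resistant libraries, against 10, 7 and 0 reads in the sensitive libraries (log2 fold change 2.90 ± 0.77, adjusted p = 0.0203, and 0.0680 without sensitive replicate 2). The HMG-CoA synthase 1-like gene LOC114128935 averaged 2.40 ± 0.462 CPM in resistant and 3.87 ± 0.753 CPM in sensitive libraries (log2 difference -0.68, adjusted p = 0.0583). It passed without resistant replicate 3 (adjusted p = 0.0423), with DESeq2 (0.0421) and with library totals alone (0.0455). The cytosolic acetyl-CoA acetyltransferase LOC114125153 had a log2 difference of 0.31 (adjusted p = 0.0701), and passed without resistant replicate 1 (0.0292) or 3 (0.0413). Of 4 genes named as decaprenyl-diphosphate synthase subunits, which make the tail of ubiquinone, LOC114124034 rose by 0.88 ± 0.20 (adjusted p = 0.00999, and 0.0529 without sensitive replicate 2). LOC114125711 had a log2 difference of 0.53 (adjusted p = 0.0546). It passed without resistant replicate 1, with a smaller log2 fold change of 0.28 (adjusted p = 0.00534), without resistant replicate 3 (0.70, adjusted p = 0.00820), with DESeq2 (adjusted p = 0.0302) and with no low-count filter (adjusted p = 0.0479). LOC114124029 was at 0.07 and LOC114126160 at -0.16, and LOC114126160 passed as lower without resistant replicate 1 (-0.31, adjusted p = 0.000448) and with library totals alone (-0.33, adjusted p = 0.0239). Without sensitive replicate 2 the number of rising supply genes was 3, and 1692 of all tested genes rose. Without resistant replicate 1 3 supply genes fell, and without resistant replicate 3 1 fell. Among all tested genes 2826 and 1714 fell in these 2 settings.

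**Figure D5:**
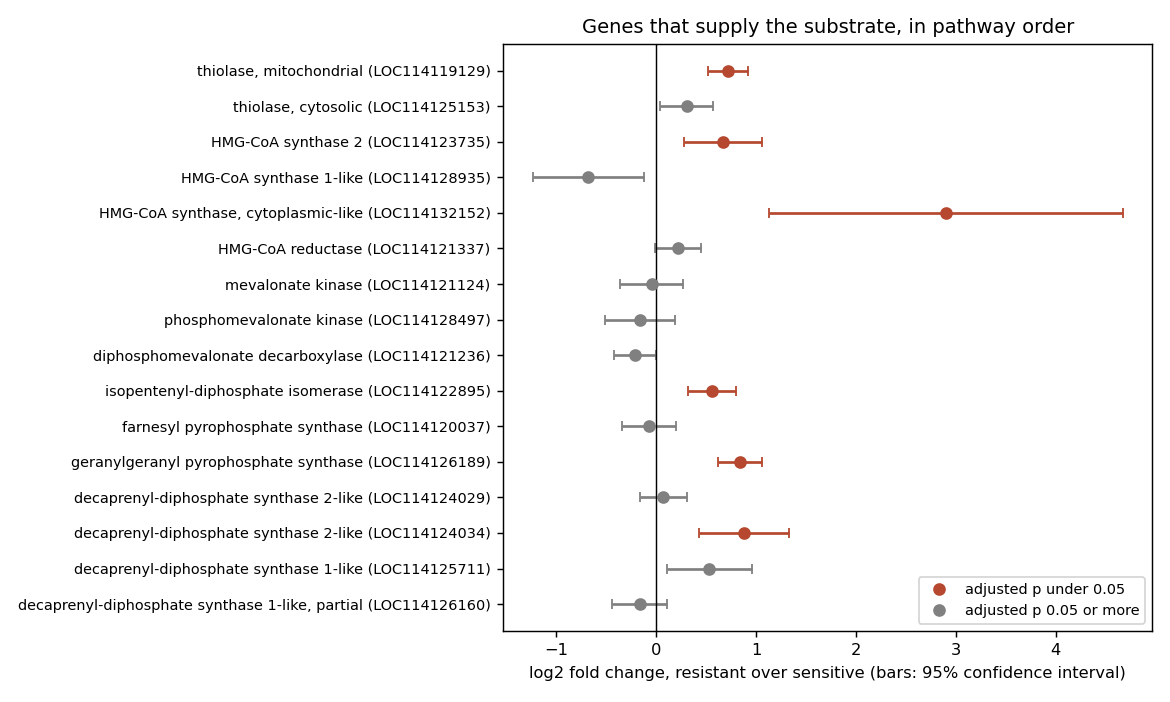
Log2 fold change, resistant over sensitive, of 16 genes matched by text to steps from acetyl-CoA to the prenyl diphosphates, in pathway order. Bars are 95% confidence intervals, red where the adjusted p over all tested genes was below 0.05. Geranylgeranyl pyrophosphate synthase stands at 0.84, whereas the 4 genes from HMG-CoA reductase to diphosphomevalonate decarboxylase lie between -0.22 and 0.22.

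A further 27 tested genes were matched by text to other uses of isoprenoid units. The farnesol dehydrogenase-like and juvenile hormone acid O-methyltransferase-like genes among them are named for enzymes that do not act on a prenyl diphosphate. Of the 27, 10 rose and 2 fell, against 21.4% and 14.4% of all tested genes, with a median log2 fold change of 0.23. The 10 included 7 of 11 farnesol dehydrogenase-like genes, named for an enzyme that oxidises farnesol on the way to juvenile hormone. The greatest rises were in LOC114122163 (1.59 ± 0.17, log2 fold change ± SE), LOC114119988 (1.42 ± 0.16) and LOC114119318 (1.14 ± 0.19). The 2 that fell were the juvenile hormone acid O-methyltransferase-like LOC114127483 (-0.59 ± 0.18), an enzyme of juvenile hormone synthesis, and protoheme IX farnesyltransferase LOC114129581 (-0.34 ± 0.10), an enzyme of haem A synthesis. Without sensitive replicates 1, 2 and 3 LOC114127483 no longer passed (adjusted p = 0.119, 0.0921 and 0.111), with log2 fold changes of -0.57, -0.62 and -0.58. LOC114129581 did not pass without these libraries either (adjusted p = 0.0611, 0.122 and 0.123), with log2 fold changes of -0.39, -0.31 and -0.32. It also did not pass without resistant replicates 2 and 3 (adjusted p = 0.108 and 0.0634; -0.29 and -0.32) or with the replicate block (0.0662; -0.34). With library totals alone 6 of the 27 rose, and without sensitive replicate 1, 2 or 3 0 fell. Among all tested genes 1759 rose with library totals alone, and 812, 788 and 789 fell without these libraries. Without resistant replicate 2 or 3 and with the replicate block 1 of the 27 fell, and 1173, 1714 and 1313 of all tested genes did.

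Past cleavage, carotenoids serve vision. Of 25 tested genes matched by their text to scavenger receptors of class B, retinoid enzymes and visual proteins, 4 rose and 7 fell, against 21.4% and 14.4% of all tested genes, with a median log2 fold change of -0.25. Some of them matched the text alone, such as 3 retinal homeobox genes, which are transcription factors. Of 7 opsin and rhodopsin genes, the light-sensing proteins that bind retinal, 0 rose and 4 fell by edgeR, with 0 higher and 6 lower at an unadjusted p below 0.05 and 0 and 4 with DESeq2. The ultraviolet-sensitive-like opsin LOC114127106 had 5.10, 1.99 and 2.48 CPM in the resistant libraries, against 10.01, 8.28 and 8.95 CPM in the sensitive libraries. All resistant libraries were lower, replicate 1 least so, and the log2 fold change was -1.53 ± 0.33 (SE, adjusted p = 0.00836 by edgeR). Another such opsin, LOC114120431, fell by 0.94 and the opsin-1-like LOC114127313 fell by 0.86 on the log2 scale, and LOC114120431 had an adjusted p of 0.0531 without sensitive replicate 3. A further ultraviolet-sensitive-like opsin, LOC114120442, did not pass (-0.66 ± 0.25, adjusted p = 0.0712 by edgeR). Among 6 scavenger receptors of class B, a group that includes carotenoid uptake proteins in Drosophila, LOC114127890 rose to 65.8 ± 8.47 CPM in resistant libraries, against 27.0 ± 0.876 CPM in sensitive libraries (log2 fold change 1.28 ± 0.11, adjusted p = 0.000120). The other 5 did not pass. Retinol dehydrogenase LOC114130876 (0.62 ± 0.17) and the retinaldehyde-binding LOC114122261 (0.52 ± 0.13) also rose. LOC114130876 was at 0.39 without resistant replicate 1, and it did not pass without sensitive replicate 1, 2 or 3 (adjusted p = 0.0967, 0.0734 and 0.0696), with log2 fold changes of 0.55, 0.64 and 0.65. LOC114122261 did not pass without resistant replicate 2 or sensitive replicate 1 or 3 (adjusted p = 0.0672, 0.0693 and 0.0896), with log2 fold changes of 0.48, 0.51 and 0.47. Of these 25 genes, 12 fell with library totals alone and 12 without resistant replicate 1. Among all tested genes 2322 and 2826 fell in those settings, against 1611 in the main fit. Without sensitive replicate 1, and likewise without sensitive replicate 3, 4 of the 25 fell and 1 rose. Among all tested genes 812 and 789 fell and 1664 and 1593 rose there. Without resistant replicate 2 or sensitive replicate 2, 2 of the 25 rose, and 1922 and 1692 of all tested genes did.

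Genes matched by text to cell types and tissues differed between the strains as well. Their counts are read against the 21.4% of all tested genes that rose and the 14.4% that fell. Whether these genes are confined to the named cells was not tested. The gut pattern was cathepsin B, aminopeptidase N, maltase or trehalase. Of 38 tested gut genes 30 rose and 0 fell, and their summed level was 12362 to 15799 CPM in resistant and 4724 to 4944 CPM in sensitive libraries. Of 10 genes matched to bacteriocytes, the cells that house the symbionts, 8 rose and 0 fell. Their sums were 3131 to 4360 CPM in resistant and 1804 to 1821 CPM in sensitive libraries. The bacteriocyte pattern held mostly names of amino acid enzymes, amino acid permeases and lysozymes. Of 54 cuticle genes 32 rose and 3 fell, with 22843 to 39562 CPM in resistant and 16172 to 16713 CPM in sensitive libraries. Muscle (5 rose and 6 fell of 21; 13806 to 15685 CPM in resistant and 12712 to 13557 CPM in sensitive libraries), nerve (3 rose and 6 fell of 23; 1063 to 1094 CPM in resistant and 1093 to 1114 CPM in sensitive libraries) and germline (1 rose and 0 fell of 12; 622 to 699 CPM in resistant and 630 to 644 CPM in sensitive libraries) differed less in sum. At an unadjusted p below 0.05, 0 gut genes, 1 bacteriocyte gene and 0 germline genes were lower, as also with DESeq2. Of the marker genes matched, 2 gut genes were at 0 in all libraries and no others were. The part of gut, bacteriocyte and cuticle RNA in the rise of the carotenoid genes was not tested.

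The genes whose profile was most like that of LOC114125977 were sought by the root mean square difference of centred log2 CPM over the 6 libraries, among 10772 other tested genes with a product description. The closest were the uncharacterized LOC114131568 (0.06 log2 units), the alpha-tocopherol transfer protein-like LOC114132638 (0.08), named for a carrier of another lipid-soluble antioxidant in mammals, LOC114132207 (uclacyanin-3, 0.11), the glutathione hydrolase LOC114128399 (0.11) and the maltase 2-like LOC114128190 (0.11). LOC114131568 had 45.2, 46.0 and 48.2 CPM in the resistant libraries, against 10.6, 9.30 and 9.91 CPM in the sensitive libraries. The alpha-tocopherol transfer protein-like gene had 5.10, 5.94 and 5.89 CPM in the resistant libraries, against 1.33, 0.927 and 1.08 CPM in the sensitive libraries. The desaturase ranked 13 in likeness (0.18 log2 units), and the next carotenoid gene, LOC114125983, ranked 662 (0.61). As the profile is mostly the gap between the strains, any gene with a steady gap of that size ranks high.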

How the data were processed

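Whole-body RNA of 6 libraries, 3 per strain, was analysed from 1 deposited table. The authors deposited raw read counts per gene and FPKM values, per the file headers, and a DESeq2 adjusted p-value and log2 fold change, also per the file headers. Reads were handled with fastp 0.22.0 and HISAT2, per the submitters' processing notes. The sources used here name no counter, strand setting, build or annotation. Counts were fitted over the whole table with edgeR 4.0.16 in R 4.3.3 (TMM, filterByExpr with a minimum count of 10 and total of 15, robust quasi-likelihood test on strain, Benjamini-Hochberg threshold 0.05). SE was the absolute log2 fold change divided by the root of F. FPKM were used for levels between genes and were not tested across genes. Alternatives were DESeq2 size factors, library totals, no filter, CPM above 1 in 3 libraries, the DESeq2 1.42.0 test, a replicate block and leaving out each library. Code was tested on simulated counts. Lists are text patterns on product descriptions. Every carotenoid and isoprenoid supply gene was named, with up to 3 per direction of 3 further lists and the 5 profiles nearest to LOC114125977. Flanking genes and gene kinds within lists were chosen after values were seen. Members and lists were chosen with earlier results of these data known. Tables and figures used Python 3.11.15, pandas 2.3.3 and matplotlib 3.10.9.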

Additional observations from a re-analysis of the deposited data

How the results depend on the processing

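Of 107 values of carotenoid genes under alternatives, 93 kept direction and side of the threshold, 8 no longer passed, 3 newly passed and 3 changed sign. All 3 sign changes were in LOC114125980, at -0.071 with library totals alone, -0.23 without resistant replicate 1 and -0.032 without sensitive replicate 2. Leaving out 1 library gave 3 to 7 rising and 0 falling carotenoid genes, 3 to 8 rising and 0 to 3 falling supply genes, and 1593 to 3249 rising and 788 to 2826 falling genes in all. The highest number fell without resistant replicate 1 (2826), and 812, 788 and 789 fell without sensitive replicates 1, 2 and 3. The number of falling supply genes was 3 with library totals alone and 1 with DESeq2. Library totals alone moved the median of all genes by -0.15 on the log2 scale, set LOC114124029 at -0.088 and set LOC114126001 at -0.00758. Leaving out 1 library gave log2 fold changes of -0.23 to 0.25 for LOC114125980, -0.19 to 0.024 for LOC114120037, -0.17 to 0.089 for LOC114121124 and -0.027 to 0.15 for LOC114124029, each with a changed sign without resistant replicate 1. The labels tie same-numbered libraries by number alone. Their deviations from the strain means correlated at -0.01, -0.03 and -0.02 for replicates 1, 2 and 3, and shared handling was not tested. With the replicate block 6 carotenoid genes rose, and 2109 genes rose and 1313 fell in all. Depth limits LOC114128806, which had 10 to 40 reads per library. The cause of these changes was not tested.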

Other observations

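Of 36 tested genes matched to melanin, ommochrome and pteridine pigments, 18 rose and 0 fell by edgeR, 9 of them at least 2-fold, with a median log2 fold change of 0.50. At an unadjusted p below 0.05 1 was lower, as also with DESeq2, and 2 and 3 fell with library totals alone and without resistant replicate 1. Of all tested genes 21.4% rose, 14.4% fell and 8.31% rose at least 2-fold. With library totals alone 2322 of all tested genes fell, and without resistant replicate 1 2826 did. The phenoloxidase 1-like gene LOC114129930, a melanin enzyme, had 66.2, 51.5 and 48.5 CPM in the resistant libraries, against 11.4, 11.2 and 8.62 CPM in the sensitive libraries. Its log2 fold change was 2.41 ± 0.17 (SE, adjusted p = 4.14e-05 by edgeR). The henna gene LOC114127118, a phenylalanine hydroxylase in Drosophila, rose by 2.35 ± 0.19 on the log2 scale, and the kynurenine/alpha-aminoadipate aminotransferase LOC114132211 by 2.04 ± 0.10. All 3 phenoloxidase and all 4 aromatic-L-amino-acid decarboxylase genes rose, whereas 1 of 8 tested yellow genes did. GTP cyclohydrolase 1, both sepiapterin reductase-like genes and xanthine dehydrogenase, which act in pteridine synthesis, did not pass, and neither did kynurenine 3-monooxygenase, kynurenine formamidase or tryptophan 2,3-dioxygenase of the ommochrome route. Other genes of the list did rise by edgeR. They included protein white LOC114126229 (0.59 ± 0.13, adjusted p = 0.00821). The scarlet-like LOC114129992 (0.72 ± 0.09, adjusted p = 0.000735) and LOC114127993 (0.84 ± 0.26, adjusted p = 0.0378) rose too. The scarlet-like LOC114119115 and LOC114125568 did not pass (adjusted p = 0.489 and 0.718). Of 5 genes named for kynurenine 3 rose. Aromatic amino acid enzymes also serve cuticle tanning and neurotransmitter synthesis, so the list is not of body colour alone. The sources used here do not give the body colour of the strains.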
